A study of Mus musculus with 14 samples.

Results

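The expression of 10 genes for adhesion molecules and niche signals was followed across 5 fractions of blood-forming stem and progenitor cells of the mouse, ranked by how much of a histone label they had kept. The genes were Itga4, Itga5, Itga6 and Itgb1 (integrin subunits), Alcam, Cd34 and Cd44 (other adhesion receptors of the cell surface), Cdh2 (N-cadherin), Adgrg1 (an adhesion G protein-coupled receptor, also called GPR56) and Angpt1 (angiopoietin 1, a secreted ligand). They were taken by name from the array annotation, as probe sets that named exactly 1 of these symbols. All 10 were measured, out of 18194 genes on the array. A gene was represented by its probe set with the highest mean over all 14 arrays, and its other probe sets served as a check.

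The cells were Lin- Sca1+ Kit+ (LSK) bone marrow cells, the fraction that holds hematopoietic stem cells and multipotent progenitors. All mice were of the C57BL/6 background and carried both transgenes, huCD34-tTA and Tet-O-H2B-GFP, so every fraction shared them; a human CD34 promoter directed the labelling to these cells. New labelling was shut off in all mice by doxycycline (Dox), given in their water at 1 mg/ml. Dox began when the mice were 6 to 8 weeks old and went on for 12 weeks. No group without Dox or without the transgenes was measured. Cells sorted as GFP0 had diluted the label most and cells sorted as GFP4 had kept most of it; about 1 to 2 divisions separate one level from the next. GFP0 was represented by 2 arrays, GFP1 by 3, GFP2 by 3, GFP3 by 2 and GFP4 by 4. The labels call these biological replicates without naming the animals or pools behind them, so p-values measure the spread between sorted samples. The RNA was amplified before labelling. The question addressed here was how the adhesion genes of LSK cells vary with divisional history.

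Integrins are heterodimers of an alpha and a beta subunit, and the alpha subunit largely sets the ligand. Paired with the beta1 subunit, alpha4 binds VCAM-1 and fibronectin, alpha5 binds fibronectin, and alpha6 binds laminins; such contacts hold stem and progenitor cells in the marrow and guide their homing. ALCAM binds itself and CD6, CD44 binds hyaluronan, CD34 is a sialomucin whose surface level is used to divide LSK cells into stem and progenitor compartments, and angiopoietin 1 is a ligand of the receptor TIE2, the product of Tek.

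Of the 10 genes, 7 had a promoter entry in the RefSeq table of GRCm38.p6. The 250 bases before the annotated start of 3 of them are shown for contrast: Alcam, the member with the steepest slope over the levels, Itga4, the integrin alpha subunit with the flattest one, and Cd34, whose mean was highest in the middle levels. Alcam lies at chr16:52453082-52453331 on the minus strand, Itga4 at chr2:79255176-79255425 on the plus strand and Cd34 at chr1:194938571-194938820 on the plus strand. Sequences run 5′ to 3′ on the gene's strand and end at the base before the start. Capitals mark matches, on either strand, to 4 short motifs that do not overlap one another here. The Ets core was searched as GGAAGT and the GATA motif as AGATAA. The Runx motif was searched as TGTGGT, and the GC box was searched as GGGCGG.
Alcam: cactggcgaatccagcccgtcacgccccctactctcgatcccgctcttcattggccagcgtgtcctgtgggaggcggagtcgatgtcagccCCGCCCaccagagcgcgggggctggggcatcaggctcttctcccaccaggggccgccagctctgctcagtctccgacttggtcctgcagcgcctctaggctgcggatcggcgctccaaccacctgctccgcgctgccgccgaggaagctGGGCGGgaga
Itga4: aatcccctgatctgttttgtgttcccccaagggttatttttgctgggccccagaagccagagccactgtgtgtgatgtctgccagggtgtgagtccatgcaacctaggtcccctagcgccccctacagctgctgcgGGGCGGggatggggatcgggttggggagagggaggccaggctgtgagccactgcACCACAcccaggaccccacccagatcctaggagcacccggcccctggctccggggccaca
Cd34: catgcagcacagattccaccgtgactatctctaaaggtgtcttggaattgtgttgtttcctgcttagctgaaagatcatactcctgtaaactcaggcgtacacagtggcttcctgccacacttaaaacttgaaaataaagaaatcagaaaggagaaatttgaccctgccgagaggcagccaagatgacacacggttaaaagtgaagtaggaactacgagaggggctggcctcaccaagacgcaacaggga
The Alcam window held a GC box from 159 to 154 bases before the start, read on the opposite strand (CCGCCC), and another from 10 to 5 bases before it. The Itga4 window held a GC box from 114 to 109 bases before the start and a Runx match on the opposite strand (ACCACA) from 60 to 55 bases before it. The Cd34 window held none of these letters. GC content was 69.2% for Alcam, 64.0% for Itga4 and 46.4% for Cd34, against a median of 52.4% over all promoters. Among 32851 promoter windows of this length, 32.7% held the GC box, 19.7% the Ets core and 9.99% the GATA letters, and 4614 windows held the Runx letters, so a single match is common.

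All values below are log2 expression as deposited, and a difference of 1 is a doubling. The slope is the change in log2 expression per GFP level, with every level weighted equally. Differences carry the moderated standard error of limma, and adjusted p-values are limma's after Benjamini-Hochberg adjustment over all 18194 genes, with a threshold of 0.05. Array medians lay between 6.96 and 7.18 around the table median of 7.03. The interquartile range of the values ran from 2.09 to 2.73. The arrays with the narrowest ranges were GFP0 replicate 1 (2.09) and GFP4 replicate 1 (2.21). These 2 arrays recur below: GFP0 replicate 1 was the lowest of the 14 arrays in 4 of the 10 genes, and GFP4 replicate 1 was the lowest GFP4 array in 6 and the highest in 3.

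The sorted phenotype was checked against 9 genes of LSK cells. Kit lay between 8.05 and 9.91, Ptprc (CD45) between 9.90 and 12.66 and Flt3 between 10.18 and 11.70; Ly6a, which encodes Sca1, was not analysed here. Mecom, Hlf and Procr, genes of stem cells, rose with the level by 0.76, 0.65 and 0.78 per level (adjusted p = 0.00314, 0.00341 and 0.00314 in limma), and none of the 9 fell. Of 57 markers of other cells 8 fell with the level and none rose, where 1.07% of all genes fell and 2.28% rose. Of 8 mast cell and basophil markers 3 fell with the level (Ms4a2, Cpa3 and Fcer1a), of 12 neutrophil and monocyte markers 1 (Ltf), of 9 B cell markers 2 (Ighm and Vpreb1), of 8 T and NK cell markers 1 (Nkg7) and of 9 endothelial and stromal markers 1 (Pdgfrb). None of 4 erythroblast or 7 megakaryocyte and platelet markers passed in either direction. Slopes of these 7 ran from -0.38 to 0.60, with a median of 0.02. Vwf had the highest (0.60, adjusted p = 0.0813 in limma), and that of Ppbp was 0.28 (adjusted p = 0.157). The mean of the neutrophil and monocyte list was 9.70 to 11.46 in the GFP0 arrays and 7.51 to 9.46 in the GFP4 arrays, and that of the mast cell and basophil list 8.76 to 9.22 and 6.86 to 8.40. The highest GFP4 value of both lists came from GFP4 replicate 2 (9.46 and 8.40); the next highest were 8.35 and 6.99. This array also stood apart on the third principal component of all genes (-68.7, with the others between -8.53 and 14.05), and without it the same 3 members passed for the slope described next. The endothelial and stromal list averaged 7.26 to 7.48 in GFP0 and 7.12 to 7.25 in GFP4; its defining genes Cdh5 (5.60 to 6.23) and Lepr (6.41 to 7.13) stayed near or below the table median, while Kdr lay between 7.49 and 8.73 and Cldn5 between 6.60 and 9.04. In sorted bulk samples, fewer cells of a type and less RNA per cell cannot be told apart. The part of these cell mixtures in the differences below was not tested.

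With label retention 3 genes of different classes rose across the 5 levels: the adhesion molecule Alcam by 0.56 per level, the integrin subunit Itga6 by 0.33 and the ligand Angpt1 by 0.31. Adgrg1 had a slope of 0.35 that did not pass. The 6 other genes had slopes between -0.10 and 0.18 and none passed. Thus 3 of 10 were called, all of them higher, where 3.35% of all genes were called in either direction 2.28% were called higher and 1.07% lower. The median slope of the 10 was 0.15, beside -0.01 over all genes. At an unadjusted p under 0.05 the count was 5 of 10, with Itga5 and Adgrg1 added, beside 16.7% of all genes. The calls did not hold under every choice of arrays. None of the 10 genes passed without GFP0 replicate 1 or without GFP3 replicate 2, and Alcam alone passed without GFP3 replicate 1, GFP4 replicate 3 or GFP4 replicate 4. Without GFP0 replicate 1 the slopes were 0.37 for Alcam (adjusted p = 0.155), 0.24 for Itga6 (adjusted p = 0.194) and 0.30 for Angpt1 (adjusted p = 0.175). Without GFP3 replicate 2 they were 0.53 (adjusted p = 0.0769), 0.32 (adjusted p = 0.0918) and 0.30 (adjusted p = 0.122).

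**Figure D1:**
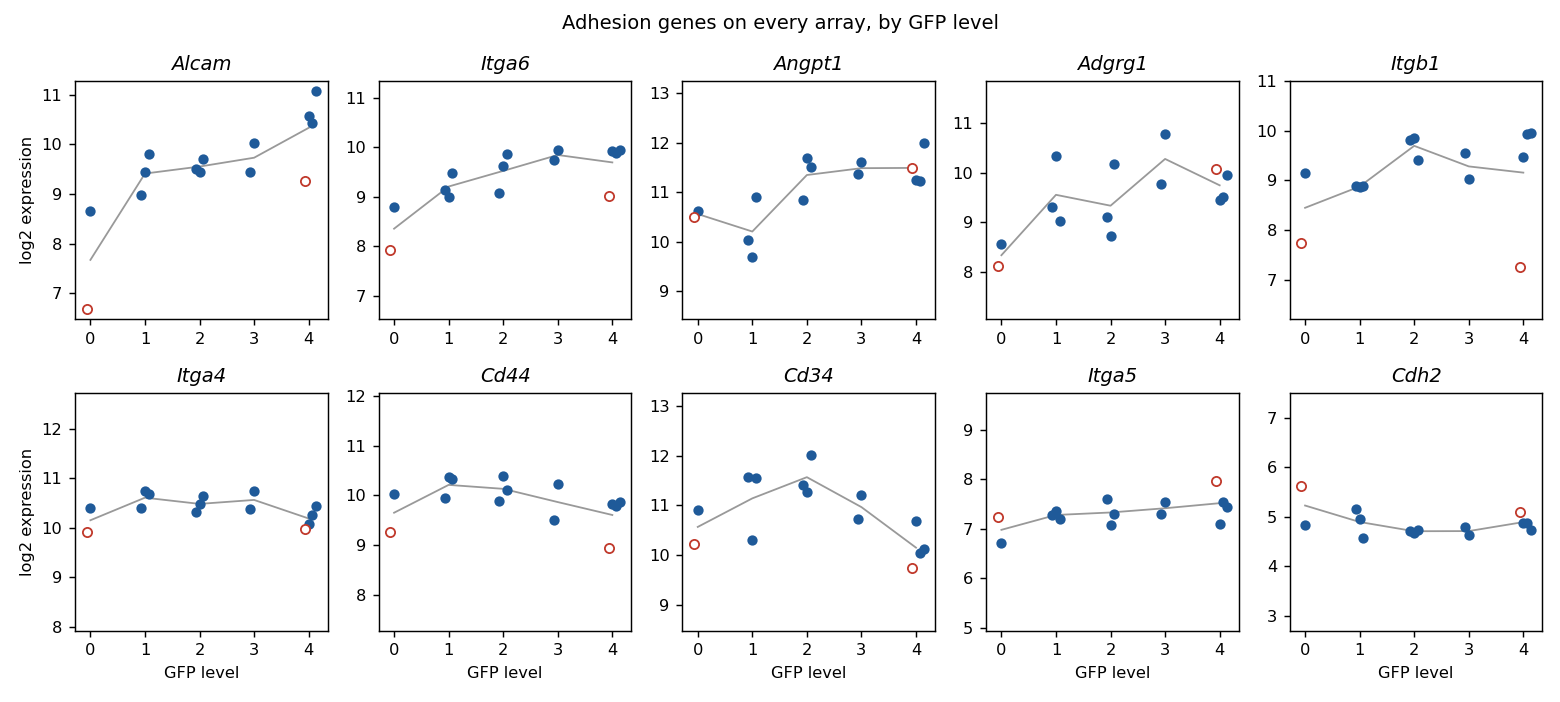
Log2 expression of each of the 10 genes (vertical axes, same span in every panel, own centre) in every array, by GFP level from GFP0 to GFP4 (horizontal axis). Grey lines join the group means, and open red points are replicate 1 of GFP0 and of GFP4, the arrays with the narrowest value range. Alcam, Itga6, Adgrg1 and Angpt1 have all GFP4 arrays above all GFP0 arrays, and Cd34 has its highest mean (11.57) in GFP2 and its lowest (10.15) in GFP4.

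Alcam, which mediates contacts between like cells and with CD6, showed the steepest slope of the 10. Its values were 6.69 and 8.66 in the GFP0 arrays, 8.98, 9.45 and 9.80 in GFP1, 9.51, 9.44 and 9.71 in GFP2, 9.44 and 10.03 in GFP3, and 9.27, 10.57, 10.43 and 11.07 in GFP4. Both GFP0 arrays lay below every other array, GFP0 replicate 1 by far the most, and the GFP1, GFP2 and GFP3 arrays overlapped. Group means were ordered by level, starting at 7.67 ± 1.39 (SD, n = 2), then 9.41 ± 0.41 (SD, n = 3), 9.55 ± 0.14 (SD, n = 3), 9.73 ± 0.41 (SD, n = 2) and 10.33 ± 0.76 (SD, n = 4) in GFP4. The difference between GFP4 and GFP0 was 2.66 ± 0.51 (SE, adjusted p = 0.0217 in limma), or 6.33-fold. Most of it lay in the step from GFP0 to GFP1, of 1.74 ± 0.54 (SE), which did not pass on its own. Without GFP0 replicate 1 the difference was 1.68 and did not pass (adjusted p = 0.22). Over GFP1 to GFP4 alone the slope was 0.29 and did not pass either (adjusted p = 0.252).

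Among the integrin alpha subunits, Itga6 rose with the level and Itga4 and Itga5 did not pass. Itga6, the laminin-binding alpha6, was 7.92 and 8.79 in GFP0, 9.14, 9.003 and 9.48 in GFP1, 9.07, 9.63 and 9.86 in GFP2, 9.75 and 9.94 in GFP3, and 9.02, 9.92, 9.89 and 9.94 in GFP4. On this brightest probe set, though not on the other, both GFP0 arrays lay below all others. GFP4 replicate 1 lay with the GFP1 arrays while the other 3 GFP4 arrays lay with GFP3. The slope of 0.33 ± 0.07 (SE, adjusted p = 0.0288) passed, whereas the difference between GFP4 and GFP0 of 1.34 ± 0.32 (SE, adjusted p = 0.0574, 2.52-fold) missed the threshold. Among the alternatives this difference passed only after loess (1.23, adjusted p = 0.029), without dim genes (adjusted p = 0.0463) and without GFP4 replicate 1 (1.56, adjusted p = 0.019). It did not pass with the replicate block (1.10, adjusted p = 0.114) or array weights (1.49, adjusted p = 0.225), and was 0.90 without GFP0 replicate 1. Over GFP1 to GFP4 the slope was 0.18 (adjusted p = 0.359).

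Itga4, the alpha subunit of VLA-4, had a slope of 0.00 ± 0.05 (SE, adjusted p = 0.986). Its arrays ran from 9.91 to 10.39 in GFP0, 10.40 to 10.73 in GFP1, 10.32 to 10.64 in GFP2, 10.39 to 10.73 in GFP3 and 9.98 to 10.44 in GFP4. GFP0 and GFP4 covered nearly the same range and the middle levels lay slightly above them. The GFP4 arrays averaged 0.42 ± 0.18 (SE) below GFP1, which did not pass (adjusted p = 0.352).

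Itga5, the alpha subunit of the fibronectin receptor, was 7.24 and 6.71 in GFP0 and 7.97, 7.11, 7.54 and 7.44 in GFP4, close to the table median throughout. The groups overlapped, and the slope of 0.12 ± 0.05 (SE, adjusted p = 0.29) did not pass. Of its 4 probe sets 2 had positive and 2 negative slopes, so no direction can be given.

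Because a level cannot be compared between probe sets, the alpha subunits were set against each other as changes. The difference Itga6 minus Itga4, taken within each array and set to a mean of 0 in GFP0, was -0.19 and 0.19 in GFP0, 0.53, 0.06 and 0.59 in GFP1, 0.55, 0.94 and 1.02 in GFP2, 1.16 and 1.00 in GFP3, and 0.83, 1.63, 1.44 and 1.30 in GFP4. Means were higher at each level, at 0.40 ± 0.29 (SD, n = 3), 0.84 ± 0.25 (SD, n = 3), 1.08 ± 0.11 (SD, n = 2) and 1.30 ± 0.34 (SD, n = 4), and all GFP4 arrays lay above all GFP0 and GFP1 arrays. The slope of this difference was 0.33 per level. The pair was chosen after its values had been seen, so its values are a description and no p is given. With each of the 14 arrays left out in turn the slope ran from 0.29 to 0.37, GFP0 replicate 1 included. Over GFP1 to GFP4 the slope was 0.30, made up of 0.18 for Itga6 and -0.12 for Itga4, neither of which passed. GFP0 replicate 1 was the lowest of the 14 arrays in both genes, and GFP4 replicate 1 the lowest GFP4 array in both. Such shared low values partly cancel in the difference. Over all levels, all 10 pairings of an Itga6 with an Itga4 probe set gave a positive slope, from 0.10 to 0.54. Each of these is the Itga6 slope minus the Itga4 slope of the same few probe sets, so the pairings are not separate checks. Itga6 minus Itga5 had a slope of 0.21, which was 0.35 without GFP0 replicate 2 and 0.070 without GFP0 replicate 1. Itga5 minus Itga4 had a slope of 0.12, which ran from 0.018 to 0.22 with 1 array left out and was 0.18 with both narrow arrays left out. These last 2 differences thus moved with single arrays far more than Itga6 minus Itga4 did.

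Itgb1, the beta1 subunit shared by these receptors, was 7.74 and 9.16 in GFP0, 8.88, 8.87 and 8.89 in GFP1, 9.81, 9.86 and 9.42 in GFP2, 9.55 and 9.02 in GFP3, and 7.26, 9.48, 9.94 and 9.95 in GFP4. The lowest values of all 14 were those of GFP4 replicate 1 and GFP0 replicate 1, and the groups overlapped. Its slope of 0.18 ± 0.14 (SE, adjusted p = 0.567) did not pass, nor did GFP4 against GFP1, at 0.28 ± 0.54 (SE, adjusted p = 0.866). With both narrow arrays left out GFP4 exceeded GFP1 by 0.91, which did not pass either (adjusted p = 0.0763).

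**Figure D2:**
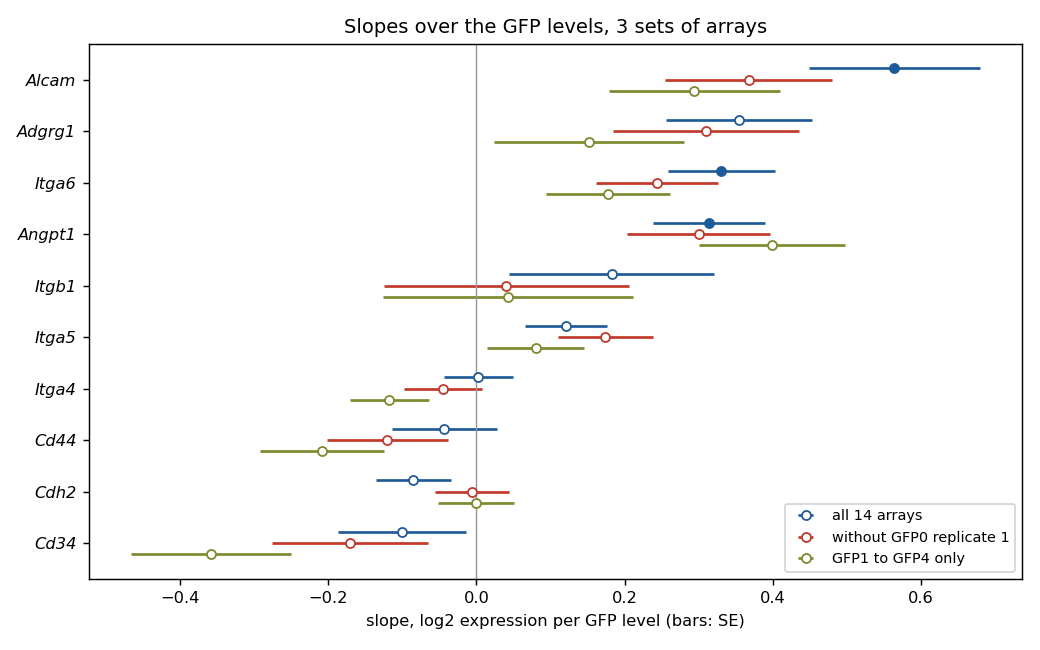
Estimates for each of the 10 genes with their moderated standard errors (horizontal bars): the slope per GFP level from all arrays, and the same slope without GFP0 replicate 1 and over GFP1 to GFP4 only (log2 expression per level); filled symbols passed an adjusted p of 0.05. Alcam (0.56), Itga6 (0.33) and Angpt1 (0.31) are the filled points, and no gene is filled in either reduced set of arrays.

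Angpt1, the ligand, had its largest step between GFP1 and GFP2. It was 10.49 and 10.63 in GFP0, 10.04, 9.69 and 10.90 in GFP1, 10.84, 11.70 and 11.50 in GFP2, 11.37 and 11.60 in GFP3, and 11.49, 11.25, 11.23 and 12.00 in GFP4. On this brightest probe set all GFP3 and GFP4 arrays lay above all GFP0 and GFP1 arrays, and only GFP2 replicate 1 lay among the latter. GFP4 arrays lay wholly above GFP0 arrays in 10.4% of all genes and above GFP1 arrays in 5.46%. The share for all of these groups together was not counted. On the other probe set, 1421441_at, GFP0 replicate 2 (8.71) lay above GFP4 replicates 1 and 3 (8.09 and 8.31). The slope was 0.31 ± 0.08 (SE, adjusted p = 0.0402). GFP4 exceeded GFP1 by 1.28 ± 0.29 (SE, adjusted p = 0.0599; 2.43-fold) and GFP0 by 0.93 ± 0.33 (SE, adjusted p = 0.201; 1.91-fold), and neither passed. Among the alternatives the former passed only after loess (1.37, adjusted p = 0.0386), without dim genes (adjusted p = 0.0478) and without GFP1 replicate 3 (1.63, adjusted p = 0.0187). It did not pass with the replicate block (1.11, adjusted p = 0.155) or array weights (1.06, adjusted p = 0.107). The step from GFP1 to GFP2, of 1.14 ± 0.32 (SE), did not pass. Over GFP1 to GFP4 the slope was 0.40 (adjusted p = 0.0691). The call for the slope was lost when any of 10 of the 14 arrays was left out, with slopes between 0.28 and 0.35.

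Adgrg1, a receptor expressed by hematopoietic stem cells that binds matrix ligands and couples to the G12 and G13 proteins, was 8.12 and 8.56 in GFP0, 9.31, 10.33 and 9.02 in GFP1, 9.10, 8.73 and 10.17 in GFP2, 9.78 and 10.78 in GFP3, and 10.07, 9.45, 9.51 and 9.95 in GFP4. Both GFP0 arrays lay below the other 12, which overlapped widely. Its slope of 0.35 ± 0.10 (SE, adjusted p = 0.0719) and its difference between GFP4 and GFP0 of 1.41 ± 0.44 (SE, adjusted p = 0.132; 2.66-fold) did not pass. Among the alternatives the slope passed only without GFP1 replicate 2 (adjusted p = 0.0355), without GFP2 replicate 3 (adjusted p = 0.0464) or as the mean over probe sets (adjusted p = 0.0488). It did not pass with the replicate block (0.34, adjusted p = 0.193), array weights (0.37, adjusted p = 0.388) or over GFP1 to GFP4 (0.15, adjusted p = 0.625). GFP4 minus GFP1 was 0.19 ± 0.38 (SE, adjusted p = 0.872).

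Cd34 had its highest mean in the middle of the range. Its values were 10.22 and 10.91 in GFP0, 11.57, 10.30 and 11.56 in GFP1, 11.41, 11.28 and 12.01 in GFP2, 10.73 and 11.20 in GFP3, and 9.73, 10.69, 10.04 and 10.13 in GFP4. Every GFP2 array lay above every GFP4 array, while GFP1 replicate 2 lay among the GFP4 arrays. How many of all genes separate GFP2 from GFP4 in this way was not counted. The test for any difference between levels did not pass for Cd34 (adjusted p = 0.239 in limma). The slope of -0.10 ± 0.09 (SE, adjusted p = 0.624) did not pass. GFP4 lay 0.99 below GFP1 (difference -0.99 ± 0.34, SE, adjusted p = 0.199; 0.502-fold), which passed only with array quality weights (difference -1.27, adjusted p = 0.0487). Over GFP1 to GFP4 the slope was -0.36 (adjusted p = 0.13), the lowest of the 10 genes. The test for a departure from a straight line did not pass for Cd34 or any other member (adjusted p = 0.679 to 0.967 in limma); at an unadjusted p under 0.05 it counted Cd34 alone, beside 7.01% of all genes. The labelling promoter is that of human CD34 and the probe set named the mouse gene; whether it also reads the transgene was not tested.

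Cd44, the hyaluronan receptor, was 9.27 and 10.04 in GFP0, 9.95, 10.36 and 10.32 in GFP1, 9.89, 10.40 and 10.10 in GFP2, 9.51 and 10.23 in GFP3, and 8.94, 9.84, 9.78 and 9.86 in GFP4. On this brightest probe set all GFP4 arrays lay below all GFP1 arrays, which also held for 4.51% of all genes, and GFP4 and GFP0 overlapped. On the next brightest, 1434376_at, GFP1 replicate 2 (8.21) lay below every GFP4 array. GFP4 minus GFP1 was 0.06 there (adjusted p = 0.96 in limma) and -0.93 on 1452483_a_at (adjusted p = 0.418). The slope was -0.04 ± 0.07 (SE, adjusted p = 0.812), and GFP4 minus GFP1 was -0.61 ± 0.28 (SE, adjusted p = 0.386). The brightest Cd44 and Itga4 probe sets followed each other over the 14 arrays (Pearson r = 0.847, and 0.705 without the 2 narrow arrays). This is a description of arrays that share their groups and scaling. The other probe sets had r with the brightest of their own gene from -0.146 to 0.451 for Cd44 and from -0.218 to 0.17 for Itga4.

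Cdh2 lay between 4.58 and 5.62 in all 14 arrays, below the table median of 7.03 in each. Its highest values were in GFP0 replicate 1 (5.62), GFP1 replicate 1 (5.15) and GFP4 replicate 1 (5.10), and its slope was -0.09 ± 0.05 (SE, adjusted p = 0.447). The second Cdh2 probe set averaged 3.37. No detection calls came with these values, so whether Cdh2 was above background cannot be read from them.

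In the direct contrast of GFP4 with GFP0, 1 of 10 genes passed (Alcam), where 1.68% of all genes were called, 1.25% higher and 0.429% lower. At an unadjusted p under 0.05 the count was 5 of 10, beside 14.7% of all genes. GFP4 arrays lay wholly above GFP0 arrays in 4 of 10 genes (Alcam, Itga6, Adgrg1 and Angpt1), beside 10.4% of all genes; they lay wholly below in none of the 10, beside 7.75%, and 18.1% of all genes did not overlap in either direction. Between GFP4 and GFP1, 0 of 10 passed in limma (4 at an unadjusted p under 0.05, Angpt1 higher and Cd34, Cd44 and Itga4 lower), where 0.989% of all genes were called (0.434% higher, 0.555% lower) and 12.7% had an unadjusted p under 0.05. Angpt1 was the only member whose GFP4 arrays all lay above the GFP1 arrays, beside 5.46% of all genes, and Cd44 the only one with all below; 9.97% of all genes did not overlap in either direction. These contrasts share the GFP4 arrays. None of the steps between neighbouring levels passed for any member, with 0% of all genes called. At an unadjusted p under 0.05, Alcam, Itga6 and Adgrg1 were counted between GFP0 and GFP1, beside 10.8% of all genes, and Angpt1 between GFP1 and GFP2, beside 2.71%. No member was counted between GFP2 and GFP3 or between GFP3 and GFP4, beside 1.36% and 3.94%. The test for any difference between levels passed for 0 of 10 (adjusted p = 0.156 for Alcam, 0.159 for Angpt1 and 0.206 for Itga6), where 0.698% of all genes were called. At an unadjusted p under 0.05 it counted 5 of 10, beside 12.8% of all genes.

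The 10 genes had 33 probe sets in all, of which 13 had a mean below the table median. Fitted one by one over the whole table of 45101 probe sets, 4 of the 33 passed for the slope, where 1.92% of all probe sets were called. All 5 Alcam probe sets had positive slopes, from 0.15 to 0.56, and 2 passed, 1437467_at (the brightest) and 1437466_at. In these, but not in the other Alcam probe sets, means were ordered by level. The second brightest, 1426301_at, averaged 9.53 in GFP3 and 9.21 in GFP4. Its GFP4 replicates 1 and 2 (7.99 and 8.18) lay below every GFP1, GFP2 and GFP3 array. Both Itga6 probe sets were positive (0.33 and 0.18), with r = 0.578 between them, and the brighter passed. In the other, 1422444_at, the GFP0 mean (8.30) lay above the GFP1 mean (7.91). Its GFP0 replicate 2 (8.60) lay above GFP4 replicates 1 and 3 (8.40 and 8.14). There GFP4 exceeded GFP0 by 0.51 (adjusted p = 0.609 in limma) and GFP1 by 0.91 (adjusted p = 0.295), and neither passed. Both Adgrg1 probe sets were positive (0.35 and 0.33) and followed each other closely (r = 0.965). Both Angpt1 probe sets were positive (0.31, adjusted p = 0.0554, and 0.22, adjusted p = 0.418), with r = 0.422 between them; with more features to adjust for, the Angpt1 call was lost. The fourth that passed, Itga4 probe set 1427615_at, went the other way from the brightest Itga4 probe set: its slope was -0.21 ± 0.04 (SE, adjusted p = 0.0275) at a mean of 5.58, with r = -0.218 between the 2. Slopes of the Itga4, Itga5, Itgb1 and Cd44 probe sets had both signs. Which exons each probe set reads was not analysed here.

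**Figure D3:**
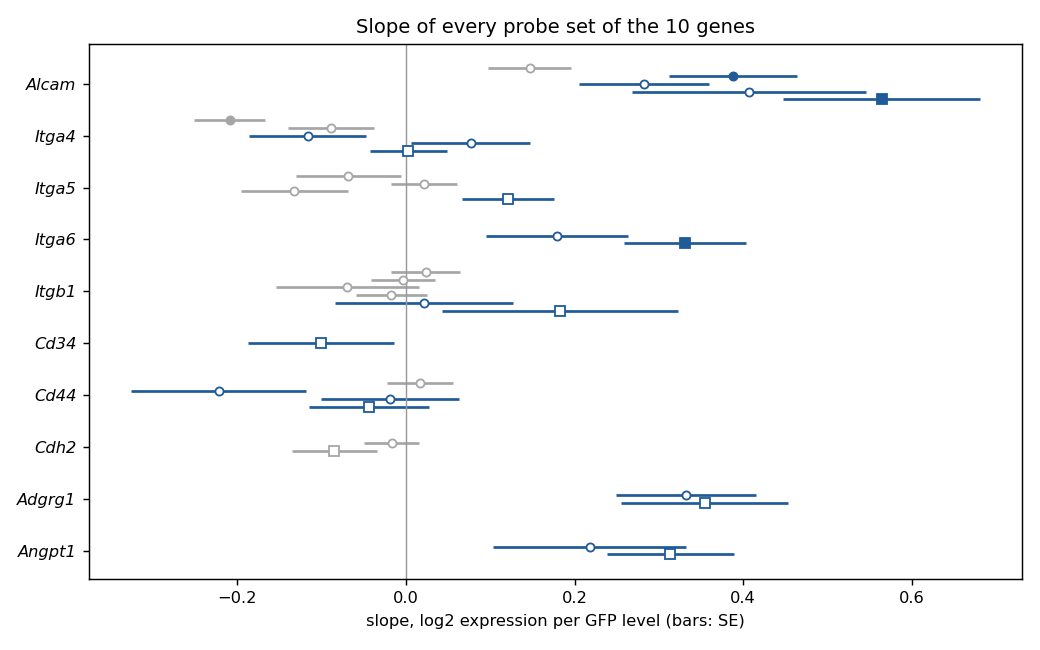
Slope per GFP level (log2 expression per level, horizontal axis) of all 33 probe sets of the 10 genes (rows), with squares for the brightest probe set of a gene, grey for means below the table median of 7.03 and filled symbols for an adjusted p under 0.05 over the whole table. The 5 Alcam probe sets are all positive, while those of Itga4 run from -0.21 to 0.08.

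Around the 10 genes, 7 lists of related genes held 117 names, of which 108 were measured. For the slope 7 of the 108 rose and 2 fell (8.33% called), with a median slope of -0.01, the same as over all genes, of which 3.35% were called. Without GFP0 replicate 1 only Tgm2 passed. Ligands and counter-receptors held 3 of the 9, all higher, out of 17 measured. Tgm2, tissue transglutaminase, which binds fibronectin and integrins, rose by 0.89 ± 0.13 per level (SE, adjusted p = 0.00309), its mean going from 9.99 ± 1.43 (SD, n = 2) at GFP0 up to 13.33 ± 0.45 (SD, n = 4) at GFP4, and was called whichever single array was left out, though not with both narrow arrays left out (0.67, adjusted p = 0.0617). In that setting the calls were Cd99l2 (higher, 0.45) and Sele (E-selectin, lower), the latter named after its values were seen. Over all arrays Sele had a slope of -0.09 (adjusted p = 0.46 in limma) and lay between 5.74 and 6.99, below the table median. Icam1, a ligand of the beta2 integrins, rose by 0.28 per level (adjusted p = 0.0245), from 8.58 to 9.73, and Tie1, a relative of the angiopoietin receptor, by 0.33 (adjusted p = 0.0436). Tek, the receptor for Angpt1, had a slope of 0.17 (adjusted p = 0.448) and lay between 5.74 and 7.52. Vcam1, a ligand of alpha4, lay between 7.60 and 8.14, and Cd6, the partner of ALCAM, between 6.89 and 7.39; neither passed.

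Among 21 other integrin subunits 1 rose, Itgb5, which pairs with alpha V, by 0.28 ± 0.05 per level (SE, adjusted p = 0.012), from 10.37 in GFP0 to 11.45 in GFP4. The list's median slope was -0.04, and neither Itgav (0.15, adjusted p = 0.493) nor the platelet subunit Itga2b (-0.27, adjusted p = 0.107) passed. Of 26 integrin adaptors and signalling genes 1 rose, the kinase Ptk2b (0.26, adjusted p = 0.0253). As a mean over its probe sets Ptk2b had a slope of 0.12 and did not pass (adjusted p = 0.128). Of 9 tetraspanins and other integrin partners 1 fell, the leukocyte tetraspanin Cd53 (-0.25, adjusted p = 0.0112; 1.26 lower in GFP4 than in GFP1, difference -1.26, adjusted p = 0.00749). Of 16 other adhesion molecules 2 rose, the junctional protein Esam (0.39, adjusted p = 0.0115) and Cd99l2 (0.46, adjusted p = 0.0423). Of 10 adhesion receptors of the Adgrg1 class and their G proteins 1 fell, Adgrg3 (-0.55, adjusted p = 0.0362), a receptor of granulocytes, so within this class the slopes of Adgrg1 (0.35) and Adgrg3 had opposite signs. None of 9 cadherins and catenins passed; Ctnnb1 (beta-catenin) had a slope of 0.15 (adjusted p = 0.31) and Cdh15 of 0.13 (adjusted p = 0.384). In the contrast of GFP4 with GFP0, Tgm2, Icam1, Esam and Itgb5 passed, all higher, so 4 of 108 (3.7%), beside 1.68% of all genes. In GFP4 against GFP1, 1 of 108 was higher (Tgm2) and 2 were lower (Cd53 and Adgrg3), or 2.78%, beside 0.989% of all genes. The slope calls differed in how far they held with each of the 14 arrays left out in turn. Cd53 and Esam were called in 13 of these sets, Itgb5 in 12, Icam1 in 11 and Ptk2b in 10. Adgrg3 was called in 6, and Tie1 and Cd99l2 in 3 each.

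**Figure D4:**
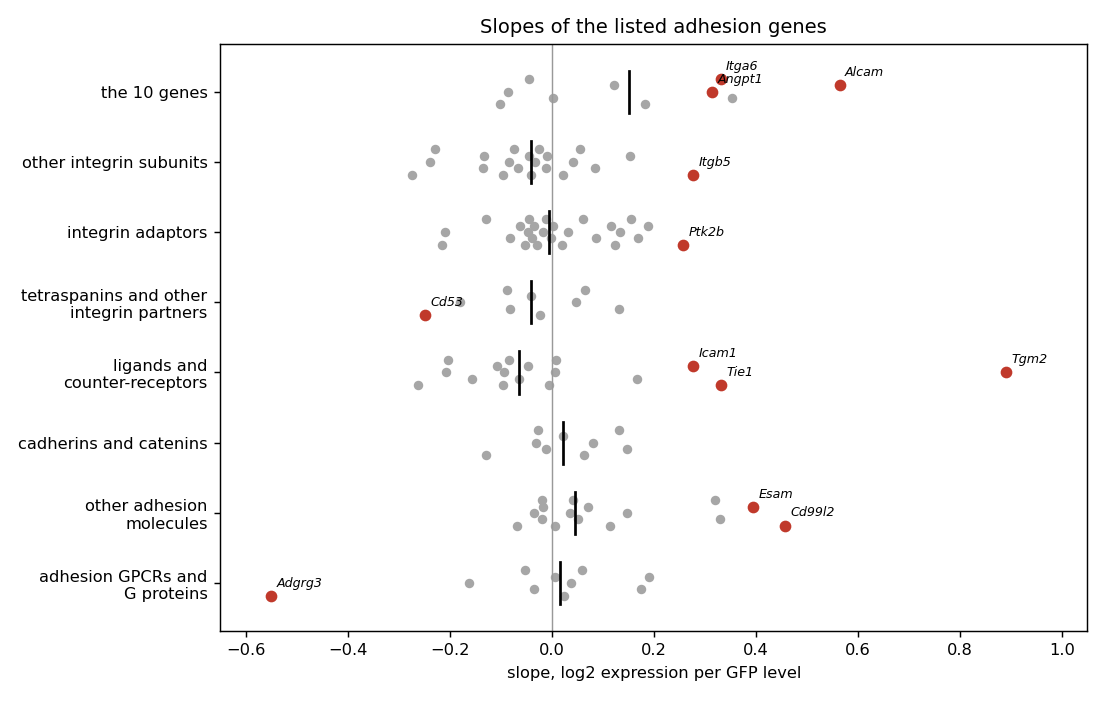
Slope per GFP level (log2 expression per level, horizontal axis) of the 10 genes and of the members of the 7 lists of related genes (rows; 1 point per gene, black bars for medians, red and named where the adjusted p was under 0.05). List medians lie between -0.07 and 0.05, that of the 10 genes lies at 0.15, and Tgm2 has the highest slope (0.89).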

How the data were processed

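Expression was measured on 14 arrays of sorted mouse LSK cells. The deposited values are log2 expression per probe set, as the values show (2.69 to 15.1); per the submitters' processing notes, the tools were GCOS, RMA and affy (no versions). RMA normalizes quantiles and summarizes probes; whether all arrays were run together, and a genome build, are not given in the sources used here. By the platform annotation 34958 of 45101 probe sets named exactly 1 symbol, 932 several and 9211 none; the brightest per symbol gave 18194 genes. Quantile scaling is meant to make distributions alike, so a shift common to most genes could go unseen. The deposited arrays still differed in interquartile range (2.09 to 2.73). Log2 differences of dim probe sets are compressed.

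In limma 3.58.1 (R 4.3.3) group means were fitted to all arrays, which then share an estimate of the spread (9 residual and 3.99 prior degrees of freedom), without a block. Tests were two-sided, adjusted over all genes by Benjamini-Hochberg. Contrasts were the slope, GFP4 against GFP0 and GFP1, and neighbouring levels. The scripts were tested on simulated data. The number of arrays limits precision.

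The 10 genes and all lists were chosen with earlier results of these data known, so no list is independent evidence. All 10 genes are named, plus related genes past the threshold for the slope or for GFP4 against GFP0 (at most 6 a list; where none passed, 2 of the steepest that reach the table median), markers past it (at most 3 a list), and for each member past it the 4 genes correlating best over the arrays. Others are named as partners of the 10 genes, chosen after their values were seen. Alternatives were centring, cyclic loess, a filter on dim genes, means over probe sets, another variance model, array weights, the replicate block, left-out arrays, 3 prime to 5 prime covariates and a regression on level. Figures were drawn with matplotlib 3.10.9.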

Additional observations from a re-analysis of the deposited data

Results flagged for a closer look

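In the GFP4 group 1 array stood apart from the other 3 in 2 of the 10 genes, and it was the same array, GFP4 replicate 1, both times. For Itga6 it was 9.02 and the next lowest 9.89, a gap of 0.939 of the range of the group. For Cd44 it was 8.94 and the next lowest 9.78, a gap of 0.914 of the range. Gaps above 0.829 are listed for groups of 4, and chance alone gives about 1 in 20 such groups. Itgb1 fell just short, with a gap of 0.826 of the range: GFP4 replicate 1 was 7.26 and the next lowest 9.48. The same array had the second narrowest interquartile range of all 14 (2.21). Its part in these gaps was not tested.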

How the results depend on the processing

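Counts of calls depended on the arrays and the model. For the slope (3 called), 0 to 4 genes were called when 1 array was left out, 1 with centred arrays, 0 with array weights, 1 without both narrow arrays, 0 with 3 prime to 5 prime covariates and 0 over GFP1 to GFP4, with or without the narrow GFP4 array. Alcam was called in 12 of 14 sets with 1 array left out, Itga6 in 9 and Angpt1 in 4. For GFP4 against GFP0 (1 called) the counts were 2 after loess, 2 without dim genes, and 0 with weights, without both narrow arrays, with covariates and with only those 2 groups; 0 to 2 with 1 array left out. For GFP4 against GFP1 (0 called) loess, the dim filter and weights gave 1, and left-out arrays 0 to 1. Of the 108 related genes (9 called), 1 was called with weights, 4 with the replicate block, 2 without both narrow arrays, 2 with covariates, 4 over GFP1 to GFP4 and 3 there without the narrow array; 1 to 10 with 1 array left out. Of the 33 probe sets (4 called), 2 were called after centring, 0 with weights, 2 with the block and 1 without both narrow arrays; 0 to 5 with 1 left out. Itga5 minus Itga4 was 0.18 without both narrow arrays and 0.20 over GFP1 to GFP4, and 0.018 to 0.22 with 1 array left out. Itga6 minus Itga5 was 0.070 to 0.35 with 1 array left out.

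Signs turned only in values that did not pass. The Itga4 slope was -0.013 after loess, -0.067 as a mean over probe sets, -0.020 with the block, -0.032 without both narrow arrays, -0.12 over GFP1 to GFP4 (-0.10 without the narrow array) and -0.034 by regression; its GFP4 minus GFP0 was -0.012, -0.22, -0.11 and -0.14 in the first 4. As means over probe sets Itga5 gave -0.015 for the slope, -0.079 for GFP4 minus GFP0 and -0.029 for GFP4 minus GFP1. Cd44 GFP4 minus GFP0 was 0.10 with weights and 0.041 with covariates. Cdh2 GFP4 minus GFP1 was 0.011, 0.052 and 0.15 with weights, block and covariates, and that of Adgrg1 -0.083 with covariates. With 1 array left out, slopes ran from -0.046 to 0.051 for Itga4 and -0.12 to 0.033 for Cd44. GFP4 minus GFP0 ran from -0.21 to 0.28 for Itga4, -0.0017 to 1.42 for Itgb1, -0.43 to 0.34 for Cd44 and -0.73 to 0.062 for Cdh2. GFP4 minus GFP1 ran from -0.16 to 0.12 for Cdh2 and -0.077 to 0.58 for Adgrg1. The cause was not tested. Alternatives on narrow arrays over GFP1 to GFP4, on the related genes and probe sets, and on the alpha subunits were chosen after seeing the data.

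Same-numbered arrays of different groups did not deviate together (mean r = 0.0606, from -0.258 to 0.576, over 23 pairs, against -0.0244 over 54 other pairs), so the numbers were not used as pairs; whether they mark shared animals or sorts is not given in the labels. With the replicate block the slope was called for Alcam (0.50, adjusted p = 0.0175 in limma) and Itga6 (0.30, adjusted p = 0.0276), and GFP4 minus GFP0 for Alcam (2.27, adjusted p = 0.0446). Over all genes 337 passed for the slope with the block and 609 without.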

Other observations

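The genes that followed the called members most closely over the 14 arrays, among genes whose mean reached the table median, are given as a description; arrays of a group share their level and the narrow arrays weigh on every value. For Alcam they were Agpat4 (r = 0.960), Cbarp (0.946), Ppp3ca (0.927) and Zfp608 (0.927). For Itga6 they were Cldn12 (0.954), Ccdc149 (0.952), 8430419K02Rik (0.948) and Nedd4 (0.945). For Angpt1 they were Bmpr2 (0.940), Fnbp1l (0.933), Usp9x (0.925) and Gprasp1 (0.924). No gene appeared in more than 1 of these lists. Among the 10 genes themselves, Alcam and Itga6 had r = 0.904, and 0.785 without the 2 narrow arrays, whereas Itga6 and Angpt1 had r = 0.643, and 0.808 without them. Itga6 and Cdh2 had r = -0.769, and -0.377 without them, so that value rests largely on these arrays.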
